A study of Mus musculus with 81 samples.

Results

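The genes described here were 8 B lineage genes chosen by symbol: Cd79a, Cd79b, Ms4a1, Pax5, Ebf1, Ighm, Vpreb1 and Igll1. They were 8 of the 54079 genes counted in each of 81 RNA-seq libraries from mouse macrophage cultures and peritoneal macrophages. The mice were with or without a conditional knockout (cKO) of the genes of the histone variant H3.3. They were selected because B cell genes had been seen higher in knockout cultures on day 3 and day 5, so the values of those days are a description and carry no test. WT mice carried floxed H3f3a and H3f3b alleles (H3f3a fl/fl, H3f3b fl/fl), the pair of genes that encode H3.3, without cre. H3.3 cKO mice carried the same floxed alleles and LysM-cre on both copies of Lyz2. LysM-cre is active in macrophages and granulocytes, not in B cells, and its insertion disrupts Lyz2. Bone marrow of C57BL/6 mice aged 8 to 10 weeks was grown in L929-conditioned medium, a source of M-CSF, into bone marrow-derived macrophages (BMDMs).

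The libraries belonged to 5 experiments, each fitted with its own model. The time course held 3 WT and 3 cKO libraries on each of days 3, 5 and 7. Titles call the cells of days 3 and 5 BMDM progenitors and those of day 7 BMDMs. Day 8 BMDMs were untreated or given IFNg for 12 h (3 WT and 2 cKO libraries each), and a further 2 cKO libraries whose title and library name disagree entered no group. Resident peritoneal macrophages came from 3 WT and 3 cKO samples. BMDMs were grown without antibody, with an IFNAR1-blocking antibody or with its IgG1 control from day 0 (3 WT and 3 cKO each). The last experiment held 3 sets of WT and cKO BMDMs, told apart by a suffix of the library names, and cKO BMDMs that also lacked Sting, Mavs or Irf7 (3 libraries per group). Time course libraries held 14419697 to 20220329 counts on genes and day 8 libraries 3614967 to 10498769. Peritoneal libraries held 7625225 to 23381318 counts, antibody libraries 5295144 to 34380735 and those of the BMDM sets and double knockouts 21504555 to 45581528. One library, cKO day 8 IFNg replicate 1, stood apart with the lowest total and a TMM factor of 0.459. H3f3a was lower in cKO than in WT in every comparison, by 1.87 to 3.47 on the log2 scale, and Lyz2 by 8.5 to 14.6. H3f3b was lower by 2.92 to 3.11 in the antibody experiment and by 0.16 to 0.41 elsewhere.

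B cells arise in bone marrow from progenitors in which EBF1 and PAX5 switch on and hold the B cell programme. The first immunoglobulin chain made is the mu heavy chain, encoded by Ighm. In pre-B cells it pairs with the surrogate light chain, made of VPREB1 and IGLL1 (lambda 5), and in later cells with a light chain. CD79A and CD79B, the Ig-alpha and Ig-beta chains, carry its signal into the cell, and CD20, the product of Ms4a1, marks B cells from the late pre-B stage on. Cultures in M-CSF favour macrophages, and B cells are not maintained by that factor.

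The genes lie at these positions of the mouse genome (GRCm38): Cd79a at chr7:24897381-24902197, Cd79b at chr11:106311341-106314762, Ms4a1 at chr19:11249675-11266241, Pax5 at chr4:44524757-44710487, Ebf1 at chr11:44617317-45008091, Ighm at chr12:113418558-113422730, Igll1 at chr16:16860671-16863985 and Vpreb1 at chr16:16868403-16870843. Vpreb1 and Igll1 are neighbours separated by 4417 bases. Vpreb1 lies inside Top3b, which runs on the opposite strand, and its reads are discussed with its values. The promoters of Cd79a and Pax5 are printed because these genes, a receptor chain and the factor known to act on it, moved together from library to library. The sequences are the 250 bases before the RefSeq start (GRCm38.p6), chr7:24897247-24897496 on the plus strand and chr4:44710695-44710944 on the minus strand, and capitals mark a match to the Ets motif CAGGAAGT.
Cd79a: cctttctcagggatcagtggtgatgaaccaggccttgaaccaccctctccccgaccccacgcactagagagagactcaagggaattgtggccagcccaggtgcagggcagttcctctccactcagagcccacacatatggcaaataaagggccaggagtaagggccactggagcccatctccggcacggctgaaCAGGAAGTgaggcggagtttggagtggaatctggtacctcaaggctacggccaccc
Pax5: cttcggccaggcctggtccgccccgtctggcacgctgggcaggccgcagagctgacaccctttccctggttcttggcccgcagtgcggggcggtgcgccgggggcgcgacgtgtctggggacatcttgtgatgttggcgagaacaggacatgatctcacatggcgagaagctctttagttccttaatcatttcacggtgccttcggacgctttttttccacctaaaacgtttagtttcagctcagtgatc
The Ets match of Cd79a began 56 bases before the RefSeq start. The gene positions above come from another annotation, GENCODE, whose starts differ. By those positions the end of the Cd79a stretch, with the Ets match, lies inside the gene. The Pax5 stretch does not adjoin its gene by them. These letter patterns were searched on both strands: CAGGAAGT, the EBF palindrome CCCNNGGG and the octamer ATGCAAAT. Among 32851 mouse promoters of this length, 2.69% held the first, 11.8% the second and 1.6% the third. The Igll1 promoter held the EBF palindrome, beginning 231 bases before its start, and no pattern was found in the promoters of Pax5, Ebf1 or Vpreb1. A match is a run of letters, not a measured binding site.

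On day 3 of culture, 7 of the 8 genes had every cKO library above every WT library, as the selection required of the group, with means 1.74 to 3.73 times as high for the 6 genes that passed the filter on low counts. Over all 15955 genes tested on that day, 18.3% had cKO libraries that lay above WT without overlap, and the median log2 fold change of all genes was 0.036. Levels are in CPM, counts scaled to the library total on genes and the TMM factor, and means are given ± SD over 3 libraries unless stated. In bulk RNA, more cells of a type and more RNA per cell cannot be told apart.

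Ighm, the heavy chain, was the highest of the 8 on day 3. It was at 21.0, 30.5 and 29.4 CPM in the WT libraries and at 55.7, 39.3 and 45.5 CPM in the cKO libraries (log2 fold change 0.80, SE 0.74). Cd79b was at 5.11, 4.92 and 4.15 CPM in WT and at 18.4, 8.61 and 10.5 CPM in cKO (log2 fold change 1.40, SE 0.43). Cd79a was at 2.11, 2.58 and 2.24 CPM in WT and at 9.04, 4.85 and 5.33 CPM in cKO (1.47, SE 0.34). For each of these receptor genes cKO replicate 1 was the highest library of all 6 and no cKO library reached down to WT. The WT libraries lay close together, within 1 CPM for Cd79a and Cd79b.

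Ms4a1 showed the largest day 3 difference of the filtered genes, from 0.749, 1.11 and 1.12 CPM in WT to 5.09, 2.39 and 3.65 CPM in cKO (log2 fold change 1.89, SE 0.46). Pax5 was at 1.84, 2.05 and 1.79 CPM in WT and at 8.41, 2.53 and 4.96 CPM in cKO (1.48, SE 0.53). Ebf1 was at 1.23, 1.58 and 1.79 CPM in WT and at 4.52, 2.46 and 3.81 CPM in cKO (1.22, SE 0.43). The spread among cKO libraries was wide for both factors and repeated the order seen for the receptor genes, with replicate 1 highest and replicate 2 lowest. Among these 6 genes the genotypes came nearest for Pax5, WT replicate 2 at 2.05 and cKO replicate 2 at 2.53 CPM. Without cKO replicate 1, the mean log2 fold change of the 6 genes was 1.04 in place of 1.38.

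Markers of some other cell types also differed between the day 3 cultures. The summed level of 9 neutrophil and granulocyte genes was 1678 to 3212 CPM in WT and 2898 to 4485 CPM in cKO, ranges that overlapped. Its highest value was in cKO replicate 1, the library in which the B lineage genes were highest. Conventional dendritic cell markers summed to 10.01 to 22.3 CPM in WT and 36.6 to 45.7 CPM in cKO. T cell markers summed to 20.9 to 34.1 and 53.1 to 74.8 CPM, nearly all of it Cd28, while Cd3e, Cd3g and the T cell receptor genes were at or near 0. Plasmacytoid dendritic cell markers (48.4 to 67.2 and 62.8 to 75.7 CPM), stromal markers (8.7 to 46.5 and 27.8 to 72.6 CPM), erythroid markers (0.82 to 4.21 and 1.76 to 4.78 CPM) and NK cell markers (3.95 to 6.34 and 5.43 to 9.17 CPM) overlapped between genotypes. The macrophage list, at 3213 to 5010 CPM in WT and 3315 to 4254 CPM in cKO, was high in both, as the label requires. The part of these cell types in the day 3 difference was not tested.

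**Figure D1:**
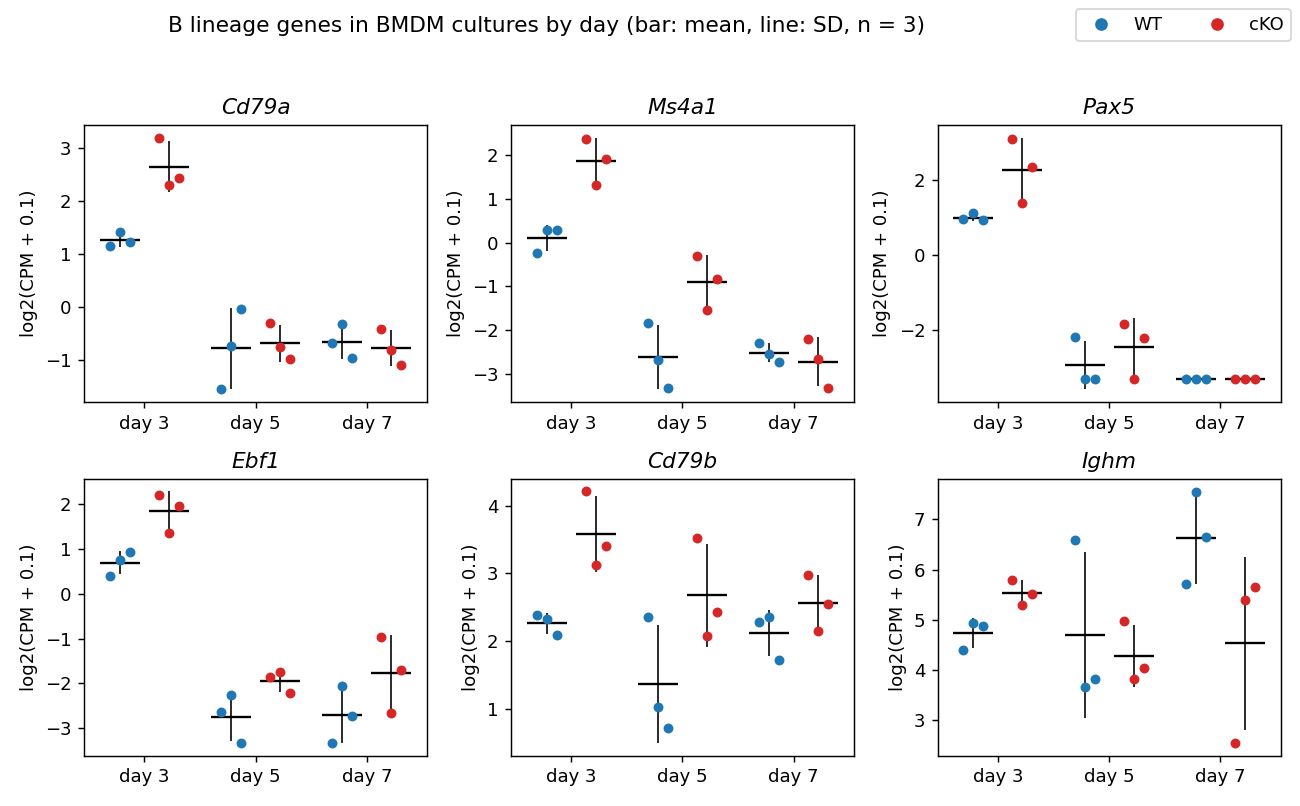
Levels of the 6 B lineage genes that passed the filter, as log2(CPM + 0.1), in each time course library by day, with WT in blue and cKO in red. Points are libraries, bars means and lines SD. On day 3 every cKO point lies above every WT point, Pax5 is at 0 in all 6 libraries of day 7, and Ighm is higher in WT than in cKO on day 7.

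In WT cultures Pax5 was no longer counted in any library by day 7, and Ms4a1, Ebf1 and Cd79a were lower than on day 3. Pax5, Ms4a1 and Ebf1 passed the filter only through day 3 libraries: apart from 1 cKO day 5 library of Ms4a1, no later library reached the 0.568 CPM the filter asks for. Their fall was in this way built into the filter, and they are described without a test. Pax5 was at 1.90 ± 0.14 CPM on day 3 and at 0 in the 3 WT libraries of day 7, where 3 counts per library would be 0.174 CPM, so it was at least 10.9-fold lower. Ebf1 went from 1.53 ± 0.29 to 0.0638 ± 0.071 CPM. With only 3 counts on day 7, its day 3 level was 27.4 times as high by counts (exact 95% interval 9.02 to 136, for counting error only). Ms4a1 went from 0.995 ± 0.21 to 0.0752 ± 0.027 CPM, on 50 and 4 counts. Cd79a went from 2.31 ± 0.24 to 0.544 ± 0.14 CPM, a log2 fold change of -2.09 (SE 0.39, adjusted p = 0.0020 by edgeR's quasi-likelihood test with Benjamini-Hochberg adjustment), in a comparison that called 23.9% of all genes. Cd79b differed little between these days, with 4.73 ± 0.51 CPM on day 3 and 4.33 ± 0.98 CPM on day 7 (-0.13, adjusted p = 0.848). Markers of other cell types fell over the same days. All 9 neutrophil and granulocyte genes were called lower (median log2 fold change -4.73), with sums of 1678 to 3212 CPM on day 3 and 75.6 to 132.5 CPM on day 7, and NK cell markers summed to 3.95 to 6.34 and 0.104 to 0.207 CPM. Of 8 macrophage genes 2 were called higher and none lower. Their part in the fall of the B lineage genes was not tested.

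Ighm went the other way. Its WT libraries of day 7 held 52.2, 187 and 101 CPM, all above the 21.0 to 30.5 CPM of day 3, for a log2 fold change of 2.07 (SE 0.76) that missed the threshold (adjusted p = 0.058). Without WT day 7 replicate 1 the adjusted p was 0.0306, and DESeq2 gave 0.042. Pax5 had no count in these same libraries.

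On day 5 the 2 genotypes were nearer to each other, and 2 genes kept all cKO libraries above all WT libraries against 15.4% of all genes. Ms4a1 was at 0.179, 0.0552 and 0 CPM in WT and at 0.71, 0.245 and 0.459 CPM in cKO. Ebf1 was at 0.0596, 0.11 and 0 CPM in WT and at 0.177, 0.196 and 0.115 CPM in cKO. These are levels of a few counts, in all 4 WT and 25 cKO counts of Ms4a1 and 3 WT and 9 cKO counts of Ebf1. Cd79b stayed higher, at 5.01, 1.93 and 1.55 CPM in WT and at 11.4, 4.12 and 5.28 CPM in cKO, with WT replicate 1 reaching into the cKO range. Ighm was at 96.5, 12.5 and 14.1 CPM in WT and at 31.4, 14.1 and 16.4 CPM in cKO, with replicate 1 the highest in both genotypes. Cd79a did not separate, at 0.537 ± 0.32 CPM in WT and 0.534 ± 0.16 CPM in cKO.

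By day 7, where the comparison was not used to choose the genes, none of the 6 was called between cKO and WT, in a comparison that called 1.4% of all genes. Ighm had 5.76, 42.1 and 50.2 CPM in cKO against 52.2, 187 and 101 CPM in WT, so that no cKO library reached the WT range (log2 fold change -1.79, SE 0.75, adjusted p = 0.244). Cd79b was at 4.74, 5.03 and 3.20 CPM in WT and 7.75, 4.33 and 5.76 CPM in cKO. Ebf1 was at 0.0638 ± 0.071 CPM in WT and 0.226 ± 0.18 CPM in cKO, on 3 and 12 counts. At such low counts the absence of a call for Pax5, Ms4a1 or Ebf1 on day 7 says little about a difference.

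Other genes of the B lineage were described by 4 lists. On day 3 all 15 of the tested B cell receptor and mature B genes had a log2 fold change above 0, with a median of 1.62. Of these genes 13 were free of overlap, against 18.3% of all genes in the higher direction. Among them were Ly6d (1.14 ± 0.46 CPM in WT and 5.86 ± 1.7 CPM in cKO), a marker of B-committed progenitors, Cd72 (28.3 ± 17 and 116.5 ± 28 CPM), a B cell co-receptor, and Cd22 (4.64 ± 0.71 and 15.2 ± 1.0 CPM), an inhibitory receptor. Of 9 further transcription factors of the lineage, 7 were above 0 with a median of 0.89, and they included Spib (2.28 ± 0.27 and 8.31 ± 2.4 CPM) and Ikzf3 (2.18 ± 1.2 and 6.79 ± 3.2 CPM). The 7 tested early B genes were more mixed, with a median of 0.46, 6 of them above 0 and 3 free of overlap in the higher direction. The 5 tested plasma cell genes had a median of 0.23, 3 of them above 0 and none free of overlap in the higher direction. In the lower direction 1 gene was free of overlap in each of the early B, transcription factor and plasma cell lists. These lists were drawn up with earlier results of the same libraries known, and their day 3 counts are not independent of the choice.

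On day 5 the medians of the same lists were 0.58 for early B genes, 0.43 for receptor and mature B genes, 0.23 for transcription factors and -0.25 for plasma cell genes. Cd72 was at 37.2 ± 13 CPM in WT and 137.6 ± 112.5 CPM in cKO on that day, and Bach2, a repressor that holds off the plasma cell state, was at 2.76 ± 0.30 CPM in WT and 1.56 ± 0.23 CPM in cKO. On day 7 none of the 7, 15, 9 and 5 tested genes of the lists was called between the genotypes. From day 3 to day 7 of WT cultures, 6 of the 7 early B genes fell and none rose, where 23.9% of all genes were called. Of the receptor and mature B genes 5 fell and 1 rose. Transcription factors fell in 5 cases and rose in 1, and plasma cell genes in 1 case each. Rag1, which cuts immunoglobulin genes for rearrangement, was at 1.77 ± 0.65 CPM on day 3 and at 0 on day 7. Pou2af1, a B cell co-activator, fell from 1.37 ± 0.39 to 0.0174 ± 0.030 CPM, and Blk, a B cell kinase, from 0.832 ± 0.14 to 0.0174 ± 0.030 CPM. On day 7 the means of Rag1, Pou2af1 and Blk lay below the 0.568 CPM the filter asks for. Their fall was favoured by the filter, and the counts of falls include such genes.

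The variable segments of the immunoglobulin loci, which are joined to a constant gene only after rearrangement, gave a further view of Ighm. Counts on 348 V segments (185 heavy chain, 160 kappa and 3 lambda) were summed in each library. STAR counted uniquely placed reads, so reads shared by near-identical V segments are missing from these sums. On day 3 they reached 7.09 ± 3.3 CPM in WT (5.10 to 10.96) and 13.98 ± 3.6 CPM in cKO (11.7 to 18.1). They were 2.23 ± 0.079 and 2.41 ± 0.29 CPM on day 5, and 1.04 ± 0.85 and 1.27 ± 0.36 CPM on day 7. V segment means were thus lower on each later day in both genotypes. Ighm in WT did not follow: its libraries of day 7 lay above those of day 3, and on day 5 replicate 1 (96.5 CPM) lay above and the other 2 (12.5 and 14.1 CPM) below them.

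Set against each other, Ighm counts per V segment count were 3.97 in WT and 3.37 in cKO on day 3 (sums over 3 libraries). They were 17.5 and 8.29 on day 5, and 95.3 in WT (51.2 to 668 in single libraries) and 26.1 in cKO (6.53 to 36.8) on day 7. In the BMDM sets the ratio was 91.5, 13.8 and 91.3 in WT of sets 1, 2 and 3, and 16.3, 11.4 and 14 in cKO. The WT libraries of set 1 (78.6 to 123) and set 3 (56.5 to 144) stood above all cKO libraries of the sets, which ranged from 10.3 to 36.0. In WT of set 2 the ratio was 9.72 to 18.7, which overlapped the cKO libraries. The double knockouts had ratios of 9.37 (Sting), 10.7 (Mavs) and 8.62 (Irf7).

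**Figure D2:**
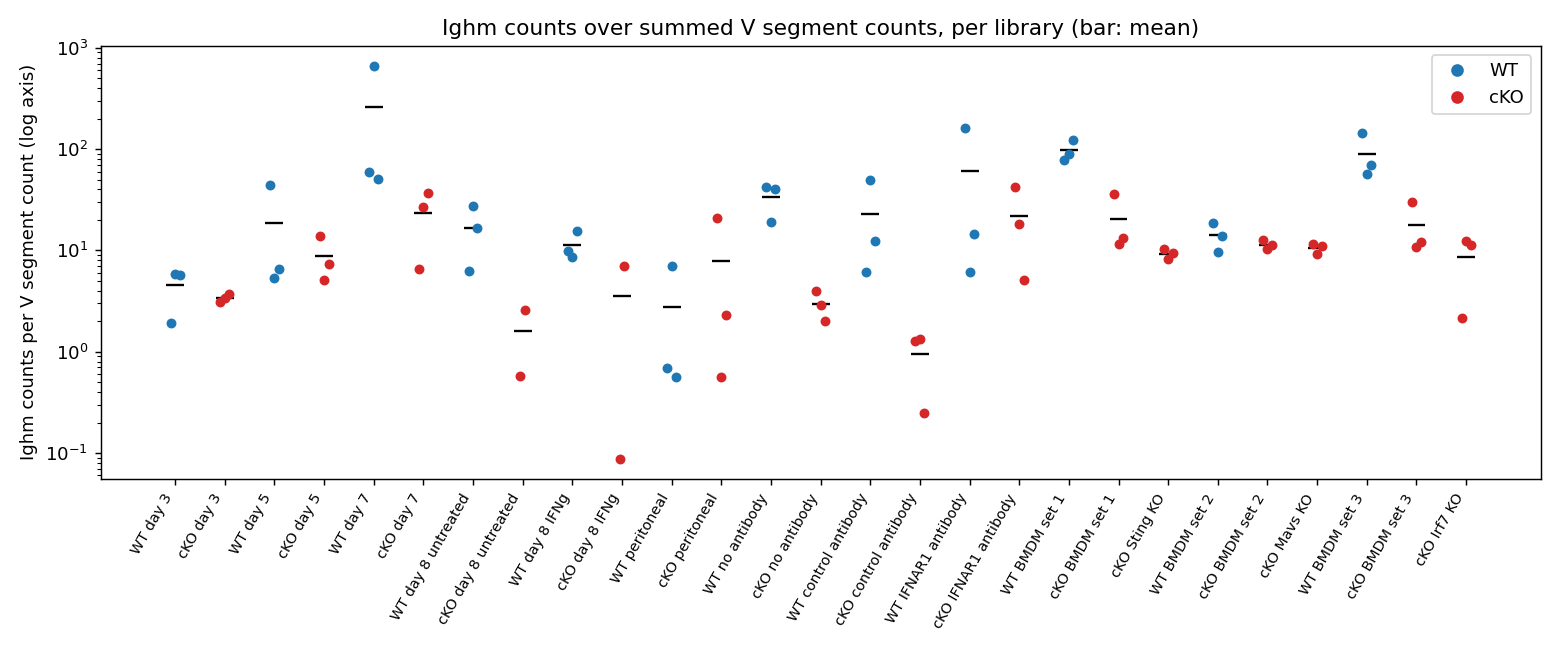
Ighm counts divided by the summed counts of 348 immunoglobulin V segments in each library, on a log axis, by group. Points are libraries, with WT in blue and all cKO genotypes, double knockouts included, in red, and bars are group means. Ratios of summed counts are highest in WT of day 7 (95.3) and of BMDM sets 1 (91.5) and 3 (91.3), against 3.97 and 3.37 in WT and cKO of day 3.

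After day 3, Ighm was the gene that differed most often between the genotypes: it was called lower in cKO than in WT in 6 of the 10 comparisons that tested it, and higher in none. In untreated day 8 BMDMs it was at 6.24, 11.6 and 13.2 CPM in WT and at 0.324 and 1.27 CPM in cKO (log2 fold change -3.74, SE 0.62, adjusted p = 0.0242), where 0.612% of all genes were called. After IFNg it was at 10.5, 25.4 and 24.0 CPM in WT and at 1.21 and 2.47 CPM in cKO (-3.18, SE 0.62, adjusted p = 0.0221), where 4.83% were called. In both conditions the highest cKO library lay below the lowest WT library. These calls rest on 2 cKO libraries each. The untreated call was lost without cKO replicate 1 (adjusted p = 0.355) or replicate 2 (0.1) or WT replicate 2 (0.0887) or 3 (0.1), and the IFNg call without WT replicate 2 (0.057) or 3 (0.0901). Without the shallow cKO IFNg replicate 1 the difference was -2.97 (adjusted p = 0.0231). With the 2 conflicting libraries placed by their titles, the differences were -2.63 (adjusted p = 0.523) untreated and -3.70 (adjusted p = 0.115) with IFNg, and placed by library name they were -3.71 (0.00258) and -2.85 (0.00348). The first conflicting library had a TMM factor of 1.268 and the second 0.890. Placed untreated libraries had factors of 1.194 to 1.254 and placed IFNg libraries 0.459 to 0.983. The factors were not used to place libraries.

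IFNg in WT BMDMs moved Ighm by 0.94 on the log2 scale (SE 0.40, adjusted p = 0.0859), with the replicate number as a block by 0.92 (adjusted p = 0.0065), in a comparison that called 40.1% of all genes. None of the other 7 genes passed the filter on day 8. Cd79b was at 0.851 CPM in untreated WT and 0.844 CPM in untreated cKO on average, and with IFNg at 0.352 CPM in WT and 0.654 CPM in cKO, where the libraries did not overlap and each held 1 to 6 counts. Some genes of the other lineage lists changed in WT BMDMs with IFNg. Cd40, a co-stimulatory receptor that macrophages also express, rose from 6.45 ± 1.7 to 316.0 ± 83 CPM, and Bst1 rose from 4.68 ± 1.1 to 75.05 ± 23 CPM. Bank1, a B cell scaffold protein, fell from 6.92 ± 2.4 to 0.528 ± 0.26 CPM, and Blnk, an adaptor of the B cell receptor, from 66.8 ± 5.9 to 17.8 ± 3.5 CPM.

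In peritoneal macrophages, isolated from the body cavity rather than grown from bone marrow, none of the 3 genes that passed the filter was called, where 0.971% of all genes were. Cd79a was at 2.02, 1.21 and 1.46 CPM in WT and at 1.54, 1.48 and 0.909 CPM in cKO (log2 fold change -0.19, adjusted p = 0.934). Cd79b was at 1.01, 0.992 and 1.23 CPM in WT and at 0.855, 0.422 and 2.60 CPM in cKO (0.09, adjusted p = 0.982). Ighm was at 8.53, 1.49 and 1.91 CPM in WT and at 8.89, 2.90 and 2.99 CPM in cKO (0.41, adjusted p = 0.915), with replicate 1 of each genotype far above the others. V segments summed to 0.213 to 12.2 CPM in WT and 0.427 to 5.11 CPM in cKO. T cell markers summed to 4.82 to 21.8 CPM in WT and 19.3 to 61.0 CPM in cKO. Pax5 and Ebf1 were at 0 in the 3 cKO libraries.

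In the antibody experiment Ighm was again the gene that differed between the genotypes. Without antibody it was at 15.3, 10.7 and 12.3 CPM in WT and at 0.639, 1.84 and 0.56 CPM in cKO (-3.69, SE 0.59, adjusted p = 0.00205), the only gene of the 4 tested to be called, where 7.09% of all genes were. With the control antibody it was at 4.26, 5.66 and 4.57 CPM in WT and at 0.388, 0.722 and 0.104 CPM in cKO (-3.68, SE 0.69, adjusted p = 0.0051), where 4.45% were called. With the IFNAR1 antibody it was at 31.0, 29.3 and 11.4 CPM in WT and at 16.1, 7.22 and 3.43 CPM in cKO, groups that overlapped (-1.41, SE 0.50, adjusted p = 0.278), where 0.675% were called. The difference between the IFNAR1 and control arms in the genotype effect was 2.28 on the log2 scale (SE 0.85) and missed the threshold (adjusted p = 0.765).

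Against the control antibody, blocking IFNAR1, the receptor of type I interferon, went with higher Ighm in both genotypes. In cKO cultures it was 4.58 higher on the log2 scale than with the control antibody (SE 0.68, adjusted p = 0.0040), where 4.03% of genes were called. In WT cultures it was 2.30 higher (SE 0.52, adjusted p = 0.0136), where 9.89% were called, and neither pair of groups overlapped. Set beside the cultures without antibody, with no test, the WT IFNAR1 libraries (11.4 to 31.0 CPM) overlapped those without antibody (10.7 to 15.3 CPM), and the cKO IFNAR1 libraries (3.43 to 16.1 CPM) lay above them (0.56 to 1.84 CPM). The WT call was lost without any 1 of the 3 control libraries (adjusted p = 0.0572, 0.0632 and 0.0642) or without IFNAR1 replicate 1 (0.0625). Both comparisons with the control antibody share those libraries with the genotype comparison of that arm.

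Cd79b and Ebf1 gave other pictures in these cultures. Cd79b was at 5.11, 2.21 and 2.17 CPM in WT and 4.37, 7.44 and 6.58 CPM in cKO without antibody (0.95, adjusted p = 0.20), and its differences with the control and IFNAR1 antibodies were 0.67 (adjusted p = 0.606) and 0.85 (adjusted p = 0.494). Ebf1 was at 0.14, 0.0566 and 1.28 CPM in WT and at 1.44, 2.35 and 5.08 CPM in cKO with the control antibody (2.70, adjusted p = 0.202), and only the cKO control group had every library above the filter. That group had the highest mean of Ebf1 after day 3. In cKO with the IFNAR1 antibody it was at 0, 0.393 and 0 CPM, a log2 fold change against the control antibody of -4.41 (SE 1.27, adjusted p = 0.0623). Ebf1 is also expressed by stromal and fat precursor cells. Stromal markers (collagens, Dcn, Lum, Cxcl12 and Pdgfra) summed to 165.4, 284.1 and 300.5 CPM in the same cKO control libraries, to 40.8, 13.3 and 222.2 CPM in WT control libraries and to 46.0, 86.5 and 43.3 CPM in cKO with the IFNAR1 antibody. The order of the libraries by Ebf1 and by stromal markers was the same within both control groups, and their part in the Ebf1 values was not tested. Pax5 in cKO control libraries came to 1 count in all.

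Among the other lineage genes of the antibody experiment, Cd22 rose in cKO in every arm, from 3.73 ± 0.30 to 11.9 ± 1.3 CPM without antibody, from 6.92 ± 0.19 to 15.9 ± 1.9 CPM with the control antibody and from 3.98 ± 0.89 to 11.02 ± 3.4 CPM with the IFNAR1 antibody. Bach2 fell in cKO without antibody (6.90 ± 1.9 to 3.03 ± 0.36 CPM) and with the control antibody (8.18 ± 0.84 to 2.89 ± 0.47 CPM). Counts of calls were few. Of 8 receptor and mature B genes, 1 rose and 1 fell without antibody, where 7.09% of all genes were called. With the control antibody 2 rose, where 4.45% were called, and with the IFNAR1 antibody 1 rose, where 0.675% were. None of the 4 plasma cell genes was called between genotypes in any arm.

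**Figure D3:**
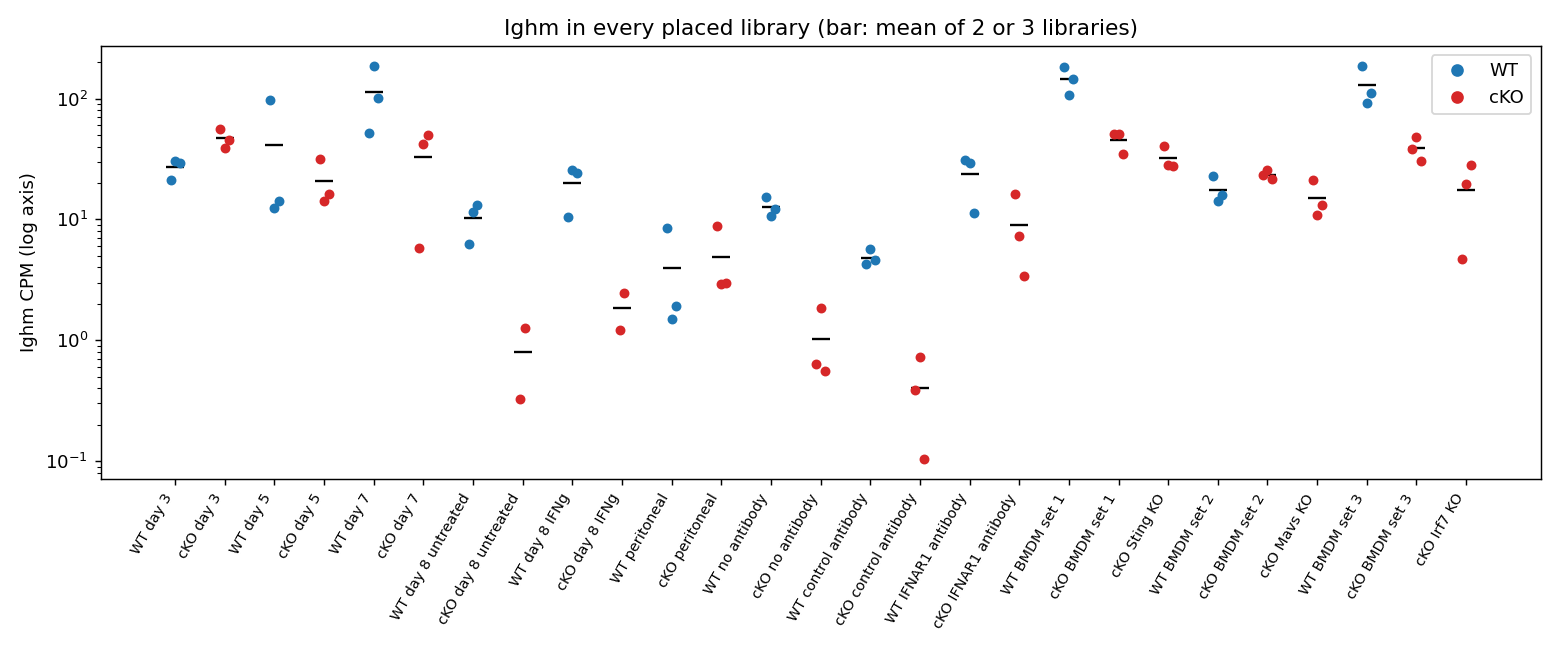
Ighm CPM in every library of the 5 experiments on a log axis, by group, with WT in blue and all cKO genotypes, double knockouts included, in red; bars are group means. WT lies above cKO without overlap on days 7 and 8, in BMDM sets 1 and 3 and in the arms without the IFNAR1 antibody, and the order is opposite on day 3.

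The BMDM sets were the deepest libraries. In set 1, Cd79a, Ms4a1, Pax5 and Ebf1 were called higher and Ighm lower in cKO, where 34.7% of all genes were called. In set 3, Ms4a1, Pax5 and Ebf1 were called higher and Ighm lower, where 34.9% were. In set 2, Cd79b was called higher, where 21.0% were. With shares this high over all genes, the number of calls says little about these genes. Ms4a1, Pax5 and Ebf1 passed the filter mainly through cKO libraries: no WT library of sets 1 and 3 reached the 0.321 CPM it asks for, and 1 WT library of set 2 did for each gene. A higher level in cKO was therefore favoured by the filter, and the calls of these genes are not a test of it. Between genotypes they are described below by values and fitted log2 fold changes only, also for differences between sets.

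Ms4a1 was at 0.13, 0.0625 and 0.0985 CPM in WT of set 1 and at 0.688, 1.63 and 1.55 CPM in cKO (log2 fold change 3.73, SE 0.71). In set 3 it was at 0.211, 0 and 0.13 CPM in WT and at 0.616, 1.52 and 1.35 CPM in cKO (3.23, SE 0.67). In set 2 it was at 0.278, 0.778 and 0.166 CPM in WT and at 0.866, 0.697 and 0.315 CPM in cKO (0.58), where the genotypes overlapped. The fitted cKO effect on Ms4a1 was smaller in set 2, with a difference from set 1 of -3.15 on the log2 scale (SE 0.93) and from set 3 of -2.65 (SE 0.88).

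Pax5 had 1 count in each WT library of set 1 and 0.36, 1.31 and 0.661 CPM in cKO (4.16, SE 0.89). The 71 cKO counts against 3 WT counts give a ratio of 19.5 with an exact 95% counting interval of 6.41 to 96.8. In set 3 it was at 0.211, 0.0779 and 0.0434 CPM in WT and 0.259, 1.69 and 1.46 CPM in cKO (3.21, SE 0.67). In set 2 it was at 0.253, 0.413 and 0.298 CPM in WT and 0.733, 0.697 and 1.24 CPM in cKO (1.44), without overlap. Pax5 was thus above WT in every cKO library of each set, although the level in cKO never exceeded 1.69 CPM. Ebf1 was at 0.087 ± 0.038 CPM in WT and 0.437 ± 0.16 CPM in cKO of set 1 (2.20, SE 0.77). In set 3 it was at 0.123 ± 0.11 and 0.483 ± 0.29 CPM (1.84, SE 0.68), where the libraries overlapped. In set 2 it differed by 0.49. With 1 library left out, the Ebf1 difference was 1.94 to 2.60 in set 1 and 1.39 to 2.89 in set 3.

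The receptor chains divided between the sets. Cd79a was at 0.52, 0.125 and 0.443 CPM in WT and 0.622, 1.14 and 1.16 CPM in cKO of set 1 (1.5, SE 0.53, adjusted p = 0.0311), a call lost without WT replicate 2 (adjusted p = 0.175) or cKO replicate 2 (0.0877) or 3 (0.0892). It differed by 0.82 in set 2 (adjusted p = 0.223) and by 1.08 in set 3 (adjusted p = 0.097). Cd79b was called in set 2, at 2.68, 3.57 and 3.41 CPM in WT and 9.40, 11.3 and 8.57 CPM in cKO (1.60, SE 0.25, adjusted p = 3.97e-05). Its differences were 0.45 in set 1 (adjusted p = 0.19) and 0.61 in set 3 (adjusted p = 0.0728). The Cd79b effect was larger in set 2 than in set 1 by 1.15 on the log2 scale (SE 0.36, adjusted p = 0.027).

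Ighm in WT was at 184, 107 and 145 CPM in set 1, at 22.7, 14.2 and 15.8 CPM in set 2 and at 187, 92.3 and 111 CPM in set 3. In cKO it was at 50.7, 50.5 and 34.5 CPM, at 23.4, 25.6 and 21.4 CPM and at 38.0, 48.4 and 30.3 CPM. It was therefore lower in cKO in set 1 (-1.68, SE 0.38, adjusted p = 0.0011) and set 3 (-1.75, SE 0.38, adjusted p = 0.00075), and it did not differ beyond its spread in set 2 (0.42, adjusted p = 0.50). The effect in set 2 differed from that in set 1 by 2.10 (SE 0.53, adjusted p = 0.0066) and from that in set 3 by 2.17 (SE 0.53, adjusted p = 0.0054). The sets differed most in their WT level, and no gene differed between sets 3 and 1 in its genotype effect (adjusted p = 1.0 for each of the 6 genes). The labels do not say what distinguishes the sets, or whether they share mice or cultures. V segments in cKO replicates 1 to 3 were at 1.41, 4.31 and 2.61 CPM in set 1 and at 1.26, 4.45 and 2.48 CPM in set 3. Sets 1 and 3 are not known to be independent of each other.

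Neutrophil markers moved with the same sets. They summed to 61 to 113 CPM in WT and 222 to 312 CPM in cKO of set 1, to 102 to 181 and 161 to 181 CPM in set 2 and to 70 to 123 and 217 to 358 CPM in set 3. Of 8 conventional dendritic cell markers, 6, 5 and 6 were called higher and 1 lower in cKO of sets 1, 2 and 3, with median log2 fold changes of 1.23, 1.13 and 1.21. Their sum, carried by Itgax, which macrophages also express, was 12.6 to 22.96 CPM in WT and 47.3 to 50.5 CPM in cKO of set 1, but 72.8 to 104.7 and 19.4 to 22.3 CPM in set 2. V segments were at 1.57 ± 0.67 and 2.78 ± 1.5 CPM in set 1, 1.27 ± 0.17 and 2.08 ± 0.36 CPM in set 2 and 1.51 ± 0.19 and 2.73 ± 1.6 CPM in set 3, and were free of overlap between the genotypes in set 2 only. The part of these cells in the differences of the B lineage genes was not tested.

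**Figure D4:**
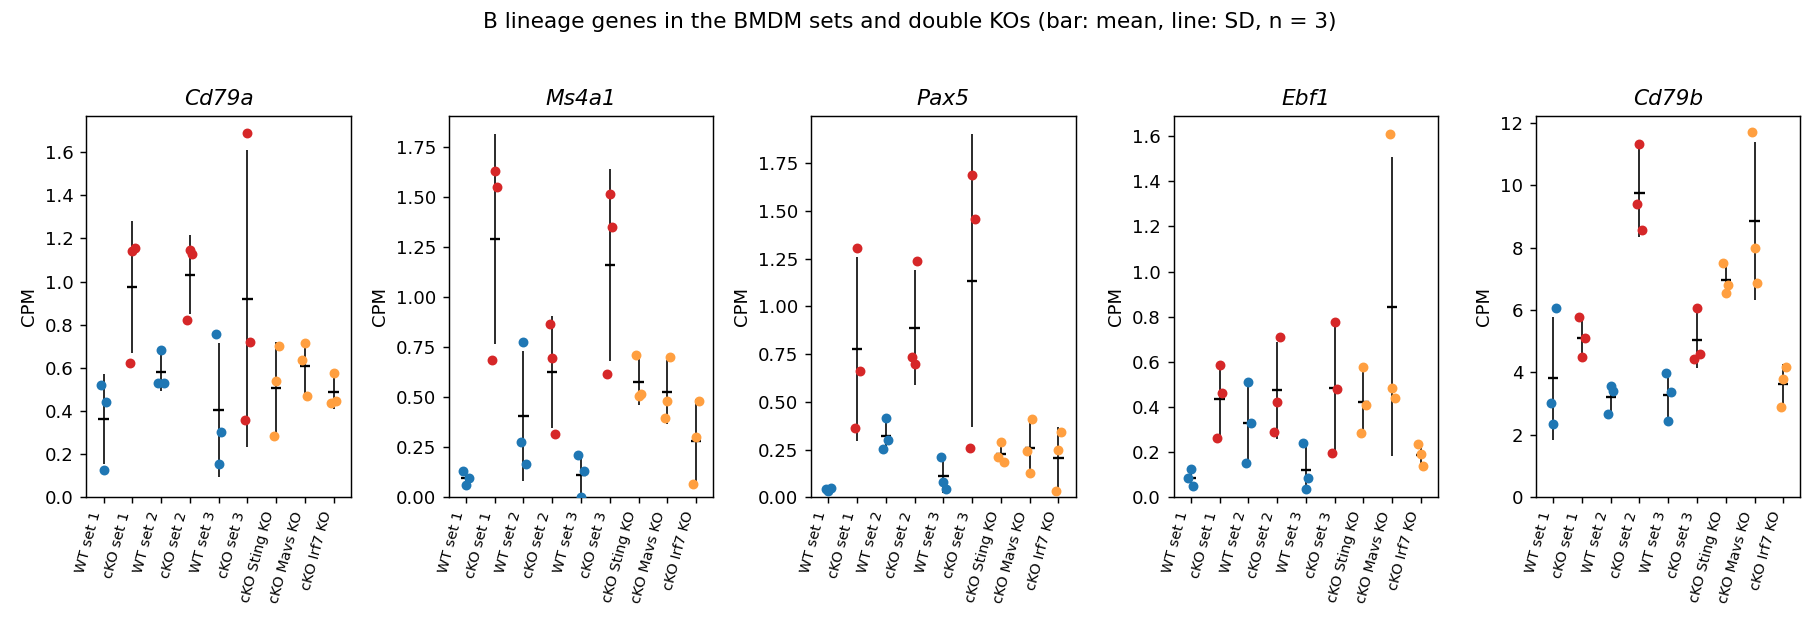
CPM of Cd79a, Ms4a1, Pax5, Ebf1 and Cd79b in the 27 libraries of the BMDM sets and double knockouts. WT is in blue, cKO in red and double knockouts in orange, and points are libraries. Ms4a1 and Pax5 are low in WT of sets 1 and 3 and higher in cKO.

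Of the other lineage genes, 8 of 15 receptor and mature B genes rose and none fell in set 1, 5 rose and 1 fell in set 2, and 9 rose and none fell in set 3. The transcription factors rose in 4 of 9 cases and fell in 1 in set 1, rose in 3 and fell in none in set 2, and rose in 4 and fell in 1 in set 3. Early B genes rose in 3 of 6 cases and fell in 1 in set 1, rose in 1 in set 2, and rose in 4 and fell in 1 in set 3. Of 6 plasma cell genes none was called higher and 2, 3 and 2 lower. The shares called in these lists stand against 34.7%, 21.0% and 34.9% of all genes in both directions. Cd72 rose from 81.7 ± 30 to 207.9 ± 19 CPM in set 1 and from 73.8 ± 15 to 198.9 ± 17 CPM in set 3. Il7r, the receptor of the early B cell growth factor IL-7, rose from 96.5 ± 20 to 210.2 ± 10 CPM and from 91.6 ± 8.6 to 193.7 ± 2.3 CPM. Xbp1, a secretory factor of plasma cells that many cells express, fell in each set, from 195.8 ± 2.1 to 131.3 ± 7.0 CPM in set 1. Several of these genes, Cd72, Il7r, Bank1 and Blnk among them, were counted in WT BMDMs at levels far above Pax5 or Ms4a1.

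The double knockouts were compared with the mean of the 9 cKO libraries of the 3 sets, which the comparisons share. Whether these 9 libraries come from separate mice is not stated. Pax5 had a lower mean in each double knockout than in cKO (0.933 ± 0.50 CPM, n = 9), and it passed the filter mainly through those cKO libraries. A lower level was thus favoured by the filter, and Pax5 is described here without a test. It was at 0.213, 0.288 and 0.185 CPM with Sting KO (-1.99, SE 0.54), where 36.1% of all genes were called. It was at 0.243, 0.127 and 0.41 CPM with Mavs KO (-1.83, SE 0.50), where 8.79% were called. With Irf7 KO it was at 0.0338, 0.247 and 0.344 CPM (-2.12, SE 0.54), where 9.85% were called. The cKO libraries ranged from 0.259 to 1.69 CPM and overlapped each double knockout. The labels do not tie a double knockout to a set. In the sample order, Sting KO follows set 1, Mavs KO follows set 2 and Irf7 KO follows set 3. Whether each was handled with that set is not stated, so the mean of the sets may not be the matched reference. With 1 library left out, the Pax5 difference was -2.32 to -1.48 with Mavs KO and -2.60 to -1.65 with Irf7 KO. Against set 1 alone it was -1.58 with Mavs KO and -1.87 with Irf7 KO. Against set 2 alone it was -1.77 with Mavs KO.

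Irf7 KO cultures were also lower in Cd79b, at 2.90, 3.79 and 4.16 CPM against 6.64 ± 2.5 CPM in the 9 cKO libraries (-0.80, SE 0.22, adjusted p = 0.0191). Ms4a1 was at 0.0675, 0.302 and 0.482 CPM against 1.03 ± 0.49 CPM (-1.78, SE 0.50, adjusted p = 0.0233). Both calls were lost without Irf7 KO replicate 1 (adjusted p = 0.137 and 0.156) or replicate 2 (0.0703 and 0.0956). The Cd79b call was also lost against set 1 (-0.50, adjusted p = 0.245) or set 3 alone (-0.47, 0.546), and the Ms4a1 call against set 2 (0.182) or set 3 alone (0.0843). Of 8 conventional dendritic cell markers, 2 were called lower with Sting KO, 4 with Mavs KO and 3 with Irf7 KO, and none higher. Neutrophil markers summed to 89 to 127 CPM with Irf7 KO and 63 to 127 CPM with Mavs KO, within the WT ranges, and to 259 to 271 CPM with Sting KO. Irf7 KO libraries also had less H3f3a (log2 fold change -0.91) and H3f3b (-0.73) than the cKO libraries.

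Ighm was lower with Mavs KO, at 21.0, 10.9 and 13.2 CPM against 35.9 ± 12 CPM (-1.20, SE 0.33, adjusted p = 0.0223), a call lost without Mavs KO replicate 2 (adjusted p = 0.138) or 3 (0.126), or against set 2 alone (-0.64, adjusted p = 1.0). It was at 40.3, 28.3 and 27.7 CPM with Sting KO (-0.11) and at 4.73, 19.7 and 28.3 CPM with Irf7 KO (-0.97, adjusted p = 0.0609). Cd79b with Mavs KO was at 11.7, 7.996 and 6.88 CPM, 0.49 above the mean of the sets (adjusted p = 0.125). Ebf1 with Mavs KO was at 1.61, 0.484 and 0.439 CPM (0.85, adjusted p = 0.215), and the library with the most Ebf1 was also the one with the most stromal markers, which summed to 299.1, 84.3 and 84.3 CPM.

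The other lineage genes differed between the double knockouts in their counts. With Mavs KO none of the 15 receptor and mature B genes rose and 5 fell, where 8.79% of all genes were called. With Irf7 KO 2 rose and 4 fell, where 9.85% were called. With Sting KO 2 rose and 3 fell, a share near the 36.1% of all genes. Of 9 transcription factors, 3 fell with Mavs KO, 4 with Irf7 KO and 1 with Sting KO, where 1 rose. Spib was at 2.41 ± 1.1 CPM in the 9 cKO libraries, 0.676 ± 0.29 CPM with Mavs KO and 0.785 ± 0.51 CPM with Irf7 KO. Fcmr, the receptor of IgM, was at 1.02 ± 0.49 CPM in cKO and fell in all 3 double knockouts, to 0.267 ± 0.17 CPM with Sting KO, 0.213 ± 0.096 CPM with Mavs KO and 0.169 ± 0.12 CPM with Irf7 KO. These double knockout means lay below the 0.321 CPM the filter asks for, so a lower level was favoured by the filter. The 3 comparisons also share the cKO libraries.

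**Figure D5:**
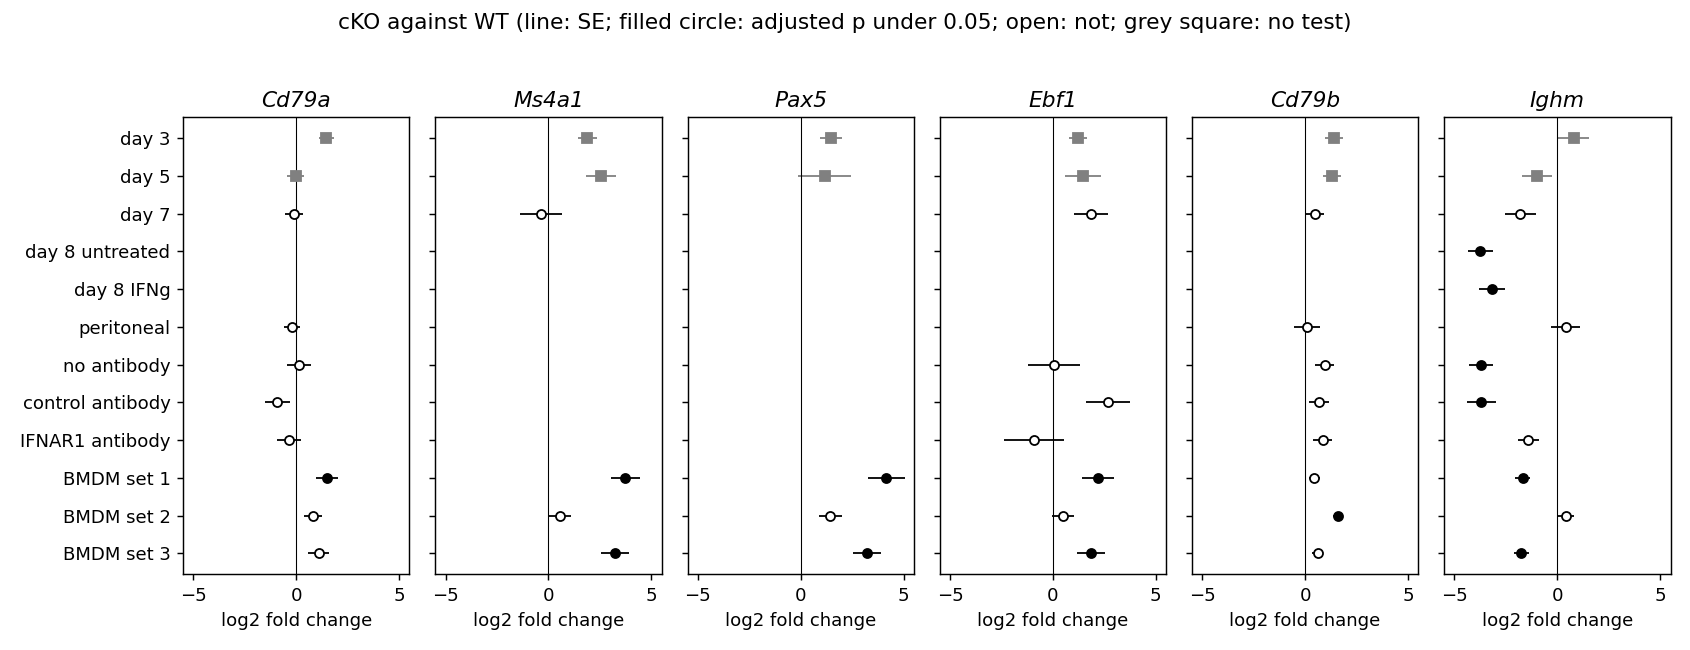
Log2 fold change of cKO against WT for the 6 B lineage genes in each comparison that could be fitted, with lines of 1 SE, filled circles for called values, open circles for values not called and grey squares where no test was made. On day 3 all 6 genes lie above 0, while Ighm lies below 0 on days 7 and 8, in BMDM sets 1 and 3 and in the antibody experiment.

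The surrogate light chain genes were close to absent from these counts. Igll1 had 28 counts in all, in 15 of the 81 libraries, and Vpreb1 81 counts in 47 libraries, and neither passed the filter in any experiment. On day 3 Igll1 was at 0, 0.117 and 0.0561 CPM in WT and at 0.126, 0.342 and 0.157 CPM in cKO, which is 2, 5 and 3 counts in the cKO libraries. Vpreb1 overlapped between the genotypes on that day. The low number for Vpreb1 is tied to how reads were assigned: the unstranded column drops reads that fall on both Vpreb1 and Top3b, and the 2 stranded columns of the same files held 208 and 190 Vpreb1 counts in the time course and 440 and 461 in the BMDM sets. The libraries were not stranded, with at most 50.5% of counts in the larger column of any experiment, so reads of Vpreb1 and Top3b cannot be told apart.

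Over all 81 libraries Ighm and Cd79b were counted in each one (59218 and 8195 counts), Cd79a in 79 (1435), Ebf1 in 70 (843), Ms4a1 in 60 (832) and Pax5 in 45 (799). Per kilobase of exon, the order in WT on day 3 was Ighm (14.3 CPM per kb), Cd79b (3.3), Cd79a (1.59), Pax5 (0.214), Ms4a1 (0.161), Ebf1 (0.157), Vpreb1 (0.110) and Igll1 (0.0267). In cKO on that day it was 24.8, 8.74, 4.40, 0.599, 0.6, 0.369, 0.189 and 0.0961 CPM per kb, so only Pax5 and Ms4a1, which were near-equal, traded places. Each experiment was scaled alone, so levels across experiments are set side by side without a test. Across the 27 groups, Cd79a was highest in cKO on day 3 (6.41 CPM), next in WT on day 3 (2.31) and then in WT and cKO peritoneal macrophages (1.56 and 1.31). The first and the second of these were separated from the next without overlap, and the 2 peritoneal groups were not. Ighm was highest in WT of BMDM sets 1 (145 CPM) and 3 (130) and of day 7 (113), which overlapped, and lowest in cKO with the control antibody (0.405).

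Across the 18 time course libraries Cd79a, Ms4a1, Pax5 and Ebf1 varied together, with Pearson correlations of log2 CPM of 0.884 to 0.947 between them. Cd79b followed them less closely, at 0.543 with Cd79a, 0.59 with Pax5, 0.628 with Ebf1 and 0.713 with Ms4a1. In the antibody experiment Cd79a correlated with Cd79b at 0.123 and with Ebf1 at -0.091. Ighm correlated with the other 5 at -0.018 to 0.203 in the time course. Over the 27 libraries of the BMDM sets and double knockouts it correlated with them at -0.515 to -0.253. Its values in the antibody experiment were 0.21 with Cd79a, -0.374 with Cd79b and -0.669 with Ebf1. Among the genes most like the mean of the 6 in the time course were Cacna1e (r = 0.956), a calcium channel subunit, Ikzf3 (0.944), Fcmr (0.943), Dtx1 (0.942), Dgat1 (0.938), Reln (0.933), Blk (0.932), Tnfrsf13c (0.931), the BAFF receptor, and Fcrla (0.931). Libraries of 1 day share their culture time, so these values describe the 18 libraries and carry no test.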

How the data were processed

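RNA-seq was made from 81 mouse libraries. Per the labels and methods, reads were trimmed with cutadapt and aligned with STAR to mm10 by the authors, who deposited STAR counts of reads per gene, not normalized. The unstranded column was used after the 4 summary lines (unmapped, multimapping, no feature, ambiguous) were removed. The libraries were unstranded, so overlapping genes share or lose reads. For peritoneal macrophages the labels and the methods name different library kits.

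Each experiment was fitted alone with edgeR 4.0.16 (R 4.3.3, TMM, filterByExpr with a minimum count of 10 and a total of 15, quasi-likelihood test, prior count 2), and p-values were adjusted by Benjamini-Hochberg over all genes with a threshold of 0.05. The fits recovered known changes when tested on simulated data. Alternatives were DESeq2 1.42.0, other scalings and filters, stranded columns, fewer libraries and replicate blocks. Differences of effects between sets and between antibody arms were added after the data had been seen. The genes and lists were chosen with earlier results of these data known. Genes named from the lists were up to 6 per comparison with the smallest adjusted p among those called (days 3 and 5: the largest change where average log2 CPM was 0 or more), and the 10 genes most like the mean of the members. A gene that this rule names is not reported here.

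Titles number biological replicates, but the labels do not tie a library to a mouse, so p-values measure the spread between libraries. Equal replicate numbers paired libraries on day 3 (correlations of deviations 0.126 to 0.419), on day 7 (0.153 to 0.467), for IFNg in WT (0.334 to 0.45) and in peritoneal macrophages (0.144 to 0.194).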

Additional observations from a re-analysis of the deposited data

Results flagged for a closer look

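The fitted cKO effect differed between BMDM sets for 3 of the B lineage genes. For Ms4a1, the CD20 gene, the effect in set 2 minus that in set 1 was -3.15 on the log2 scale, and minus that in set 3 was -2.65. For Ighm, the mu heavy chain gene, these differences were 2.10 (edgeR adjusted p = 0.0066) and 2.17 (adjusted p = 0.0054). For Cd79b the difference between sets 2 and 1 was 1.15 (adjusted p = 0.027). The interaction tests were added after the data had been seen. Ms4a1 passed the filter mainly through cKO libraries, so its differences are given without a test.

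The 2 cKO libraries of day 8 that entered no group held more Cd79b than every WT library of that day, 2.04 CPM in the first and 1.18 CPM in the second. Cd79a was at 0.535 CPM in the second, level with the highest WT library, both on 5 counts. Both genes had too few counts on day 8 to be tested.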

How the results depend on the processing

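Values here are how many of the tested B lineage genes were called, except on days 3 and 5, where they are the mean log2 fold change of the tested genes. On day 3 the mean was 1.38 and ran from 1.04 (without cKO replicate 1) to 1.58 when 1 library was left out. On day 5 it was 0.90, 0.34 over the 4 genes with a mean of at least 1 CPM, 0.16 when only the groups compared were fitted (2 genes passed) and 0.51 to 1.89 with 1 library left out, the highest without WT replicate 1. On day 7, 0 were called and 1 (Ighm) with no filter. From WT day 3 to day 7, 4 were called (3 of them genes that passed the filter only through day 3), 2 with the mean of at least 1 CPM and 4 to 5 with 1 library left out. On day 8, 1 was called untreated and 1 with IFNg, each 0 with the conflicting libraries placed by title, 0 to 1 with 1 library left out, and with IFNg 0 when only the groups compared were fitted. IFNg in WT called 0, and 1 with no filter or with the replicate block, 0 to 1 with 1 library left out. Between genotypes, the control antibody called 1, and 2 (Ebf1 added) with only the groups compared, and the IFNAR1 antibody 0, and 0 to 1 with 1 library left out. IFNAR1 against control antibody called 1 in cKO, and 2 (Ebf1 added) with DESeq2, no filter or the replicate block, and 1 in WT, 0 with only the groups compared and 0 to 1 with 1 library left out. Set 1 called 5, 1 with a mean of at least 1 CPM and 3 to 5 with 1 library left out. Set 2 called 1, 3 with no filter or only the groups compared and 2 (Pax5 added) with the replicate block. Set 3 called 4, 1 with a mean of at least 1 CPM, 2 with only the groups compared and 3 to 6 with 1 library left out. The calls of sets 1 and 3 include Ms4a1, Pax5 and Ebf1, and those of each double knockout include Pax5. These genes passed the filter mainly through cKO libraries. Sting KO called 1, 2 with no filter, 0 with a mean of at least 1 CPM, and 1 to 2. Mavs KO called 2, 4 with no filter, 1 with a mean of at least 1 CPM, 0 against set 2 alone, and 0 to 2, and there Cd79b turned to -0.14 against set 2 alone (adjusted p = 1.0). Irf7 KO called 3, 6 with no filter, 1 with a mean of at least 1 CPM or against set 3 alone, and 0 to 4. The cause of these changes was not tested, except that a mean of at least 1 CPM removed low genes. The replicate block changed no other count of calls. Among values of single genes, 569 kept direction and side of the threshold, 40 gained and 47 lost a call, and 1 reversed. Low counts limit Pax5, Ms4a1 and Ebf1 after day 3.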

Other observations

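The unassigned day 8 libraries held 0.815 and 3.53 CPM of Ighm, below the 6.24 CPM of the lowest WT library of that day. V segments in cKO day 8 IFNg libraries summed to 13.9 CPM in replicate 1, the shallow library with a TMM factor of 0.459, and to 0.353 CPM in replicate 2.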
